A study of Mus musculus with 30 samples.

Results

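The mitochondrial ribosomal protein genes of the mouse were followed as a group across CD4+ T cells and CD11c+ cells. Members were all genes whose single annotated symbol starts with Mrpl or Mrps followed by a digit, each read by whichever of its probe sets was brightest on average across the 30 arrays. This gave 73 of the 17097 genes that had a probe set naming 1 gene: 48 of the large subunit, 24 of the small subunit, and Mrps36, which carries such a symbol but is now known as a component of the alpha-ketoglutarate dehydrogenase complex. Mrps18a and Mrps30 are named as small subunit proteins and sit in the large subunit, where they were counted. All 73 matched a RefSeq gene of the same symbol.

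Mitochondria carry their own ribosomes, which translate the few messages encoded by mitochondrial DNA, all of them for subunits of the respiratory chain or the ATP synthase. Their RNAs come from the mitochondrial genome, whereas every mitochondrial ribosomal protein is encoded in the nucleus, made in the cytosol and imported. Part of these proteins have bacterial counterparts and the rest occur only in mitochondria. T cells are known to enlarge their mitochondrial mass and translation capacity when they leave rest and divide, which is why these genes are read as a sign of mitochondrial biogenesis; transcript levels do not measure the protein, the assembled ribosome or its activity.

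All mice were DO11.10 RAG2-/- on the BALB/c background, aged 8 to 10 weeks. Their T cells carry a transgenic receptor for an ovalbumin (OVA) peptide, and without RAG2 they make no other T cells and no B cells, in every group including the controls. There were 5 conditions: unimmunised, primed by a subcutaneous injection of 100 µg OVA in CFA (complete Freund's adjuvant), primed and given control IgG at 10 mg/kg, primed and given abatacept at 10 mg/kg, and tolerised by drinking water that contained OVA. Abatacept is a CTLA4-Ig fusion protein that binds CD80 and CD86 on antigen-presenting cells and so withholds CD28 costimulation. Each condition had 3 arrays for CD4+ cells and 3 for CD11c+ cells, 30 arrays in 10 groups. The labels do not say that the 3 arrays came from separate mice. The p-values therefore set a difference only against the spread among these samples, and that spread may be technical. CD4+ cells were isolated at day 10 by negative selection from axillary nodes in the 3 primed conditions, from mesenteric nodes in tolerised mice and from pooled nodes and spleen in unimmunised mice, so that for CD4+ cells organ and condition cannot be told apart in a comparison with unimmunised or tolerised mice. CD11c+ cells came from pooled spleen and nodes in every condition. A purity of over 90% was stated for both.

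Levels are deposited RMA values, a log2 scale on which a difference of 1 is a doubling, and array medians lay between 4.46 and 4.54. Cd3e, a T cell receptor subunit, averaged 10.82 to 11.60 in the CD4+ groups, and Itgax, which encodes CD11c, averaged 9.62 to 10.25 in the CD11c+ groups. Itgax was also at 7.02 ± 0.02 (SD, n = 3) in the unimmunised CD4+ arrays against 3.4 to 5.31 in the other CD4+ groups, and Cd3e at 7.22 to 8.22 in the CD11c+ groups. Eif2s3y, a Y-linked gene, averaged 8.62 and 8.89 in the primed and tolerised CD4+ groups, 8.58 and 7.63 in the primed and control IgG CD11c+ groups, and 2.51 to 2.62 in the other 6; the labels give no sex. Amy1, a digestive enzyme gene, lay above 7 on 5 CD11c+ arrays (control IgG replicates 2 and 3, unimmunised replicate 2, tolerised replicate 3 and abatacept replicate 3). Counts without those arrays are given below.

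Levels of the 73 members ran from 4.18 for Mrpl47 to 10.22 for Mrpl42 (mean of 30 arrays), with a median SD of 0.19 over the 10 group means, against 0.30 for all genes tested in the 30-array fit. Mrpl47 did not exceed the array median on 3 arrays of either cell type, so 72 members were tested within each cell type and 73 in the fits on both. Centred on each gene's own mean, the members averaged 0.27 ± 0.08 (SD, n = 3) in unimmunised CD4+ cells, the highest group, and -0.22 ± 0.05 in unimmunised CD11c+ cells, the lowest. Between these lay CD4+ control IgG at 0.10 ± 0.02, CD4+ primed at 0.08 ± 0.01, CD11c+ tolerised at 0.04 ± 0.10, CD4+ tolerised at -0.01 ± 0.01, CD11c+ primed at -0.04 ± 0.01, CD11c+ control IgG at -0.05 ± 0.03, CD11c+ abatacept at -0.07 ± 0.06 and CD4+ abatacept at -0.09 ± 0.06. The arrays of primed and control IgG mice overlapped in both cell types. Those of the tolerised and primed CD4+ groups did not, nor did those of tolerised CD4+ (-0.03 to 0.00) and primed CD11c+ cells (-0.05 to -0.04). Of the 73 genes, 40 were highest in unimmunised CD4+ cells, 37 were lowest in unimmunised CD11c+ cells and 17 were lowest in CD4+ cells of abatacept-treated mice. The same shares over all genes are not given here, so these counts do not set the members apart from other genes.

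**Figure D1:**
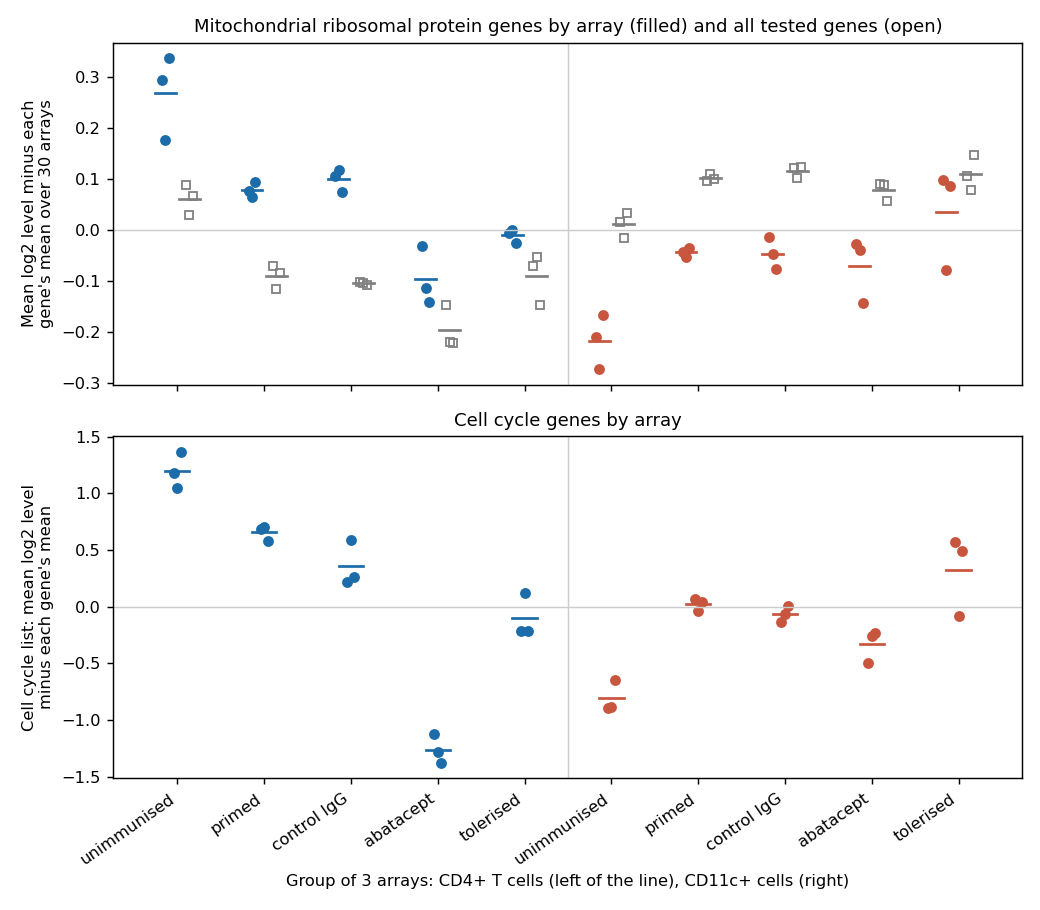
Top: mean log2 level of the 73 mitochondrial ribosomal protein genes on each array (filled points, each gene centred on its mean over 30 arrays) beside all tested genes (open squares), with the group mean as a line, for the 5 CD4+ groups (left) and 5 CD11c+ groups (right). Bottom: the same for 29 cell cycle genes. The members run from 0.18 to 0.34 on the unimmunised CD4+ arrays and from -0.27 to -0.17 on the unimmunised CD11c+ arrays, and the cell cycle genes from -1.38 to -1.12 under abatacept in CD4+ cells.

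The genes did not all move together. Over the 30 arrays, which were normalised jointly, the correlation of a member with the mean of the other members had a median of 0.64; it was above 0.5 for 51 genes and below 0 for 5. Mrpl41 followed the others most closely, at 0.94. Mrpl35 was at 0.82 within the 15 CD4+ arrays and at -0.45 within the 15 CD11c+ arrays, and Mrps6 at -0.75 and 0.57. The 5 genes whose group means varied most were Mrps6 (SD 0.61), Mrps5 (0.61), Mrpl58 (0.45), Mrpl35 (0.39) and Mrps26 (0.35). The steadiest was Mrps33, a small subunit protein, which stayed between 9.21 and 9.56 on all 30 arrays (SD of group means 0.06), followed by Mrpl10 (0.10), Mrpl11 (0.10), Mrpl3 (0.12) and Mrpl32 (0.12).

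**Figure D2:**
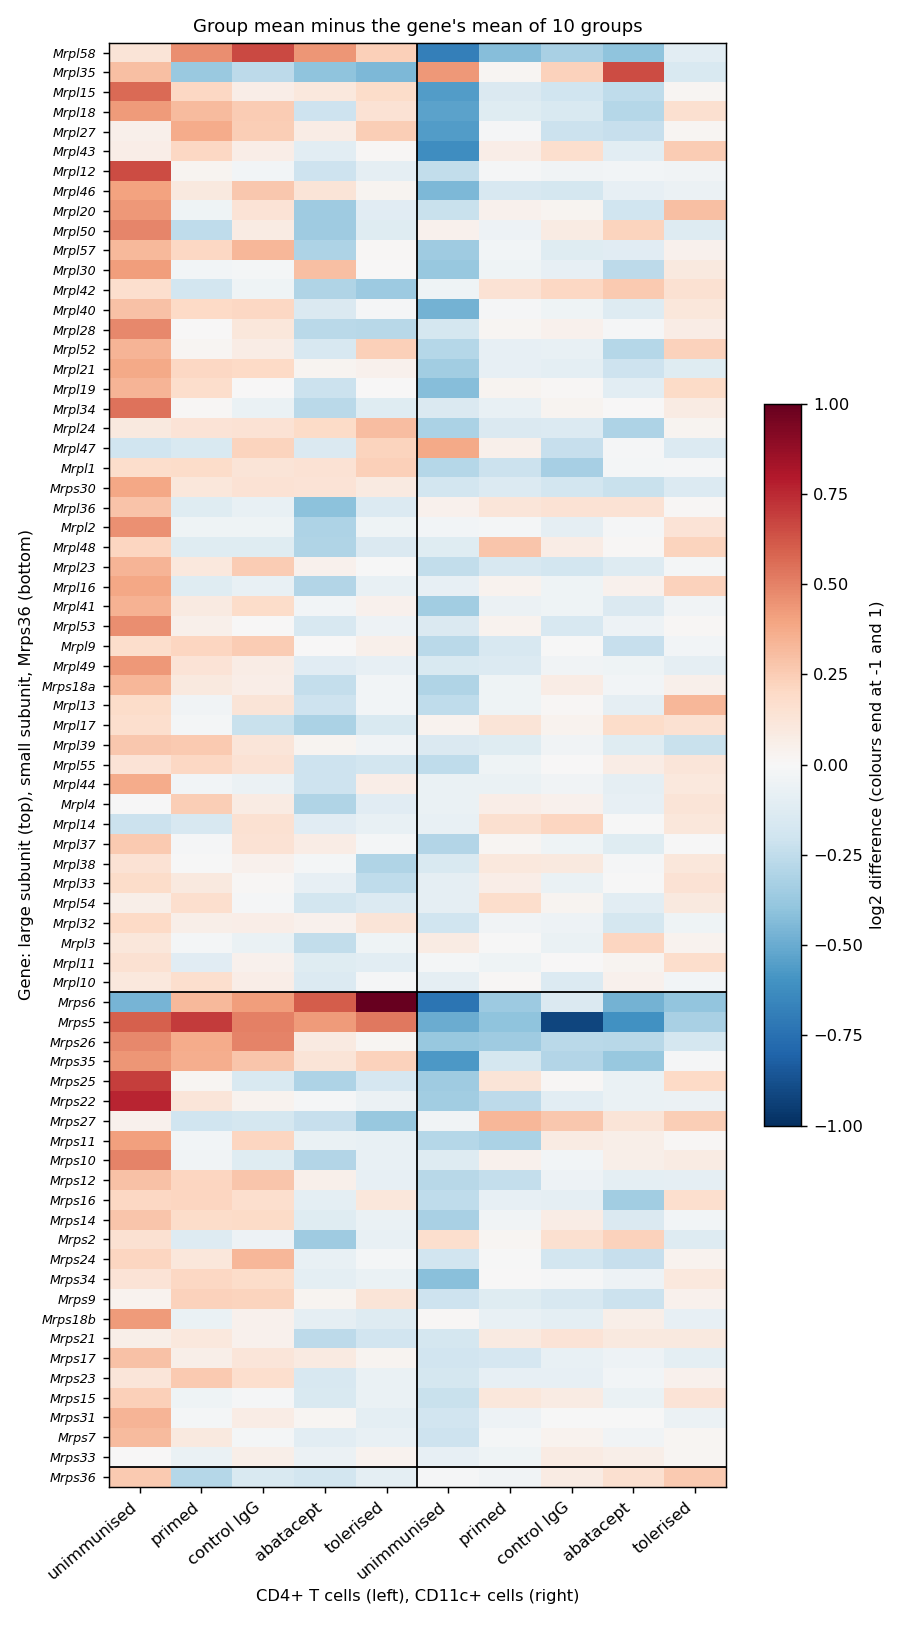
Mean log2 level of each member in the 10 groups minus its mean over the groups (red higher, blue lower), with large subunit genes on top, small subunit genes below and Mrps36 at the bottom, ordered within each by the SD of the group means; CD4+ groups are on the left. The unimmunised CD4+ column is the highest for 40 of the 73 genes and the unimmunised CD11c+ column the lowest for 37, with Mrps6 and Mrpl35 among the exceptions.

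The comparison of abatacept with control IgG in primed mice asked how blocking costimulation bore on these genes, in cells from the same organ and with Eif2s3y at 2.51 and 2.60 in the CD4+ groups. In CD4+ cells 13 of 72 members fell and 1 rose (limma, adjusted p under 0.05 after Benjamini-Hochberg adjustment over all 10322 genes tested), where 13.4% of all genes tested fell and 3.33% rose. The share that fell, 18.1%, was thus near the background; the median over members was -0.18 against -0.07 for all genes, and 67 of 72 lay below 0. The genes that fell were Mrpl57, Mrpl20, Mrpl18, Mrpl50, Mrps26, Mrps24, Mrpl28, Mrpl40, Mrps14, Mrps21, Mrps2, Mrps18a and Mrpl42, 8 of the large subunit besides 5 of the small. Arrays did not overlap between the groups for 35 of 72 members and for 36.7% of all genes tested. The members described next were picked among those called without overlap.

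Mrpl57, a mitochondria-only protein of the large subunit, read 8.62, 8.43 and 8.50 on the control IgG arrays and 8.01, 7.87 and 7.75 on the abatacept arrays. The lowest control array lay above the highest abatacept array, and the difference was -0.64 (SE 0.09, adjusted p = 0.000402), the largest fall among the members by the brightest probe set; its other tested probe set changed by -0.05 and did not pass. Mrpl20, which has a bacterial counterpart, read 7.13, 7.06 and 7.16 under control IgG and 6.73, 6.63 and 6.52 under abatacept (difference -0.49, SE 0.10, adjusted p = 0.00525). Mrpl18, whose bacterial counterpart binds the ribosomal RNA of the central protuberance, read 8.76, 8.72 and 8.76 against 8.38, 8.32 and 8.16 (difference -0.46, SE 0.10). For both genes the groups were separate, with abatacept lower on every array. Mrpl50, a mitochondria-only protein, read 7.33, 7.33 and 7.46 against 7.05, 6.92 and 6.84 (difference -0.44, SE 0.09). Among small subunit genes, Mrps26 read 8.31, 8.12 and 8.38 against 7.97, 7.64 and 7.96, and Mrps24 read 8.88, 8.70 and 8.94 against 8.44, 8.41 and 8.44; both differed by -0.41 with no overlap. The 1 riser, Mrpl30, went the other way: 8.93, 8.91 and 8.87 under control IgG and 9.21, 9.18 and 9.29 under abatacept, a difference of 0.32 (SE 0.07, adjusted p = 0.00577). Its unimmunised level was higher still, at 9.37, 9.34 and 9.32, so the abatacept arrays lay between the primed and the unimmunised ones; with the mean of all its probe sets the difference was 0.18 and no longer passed.

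**Figure D3:**
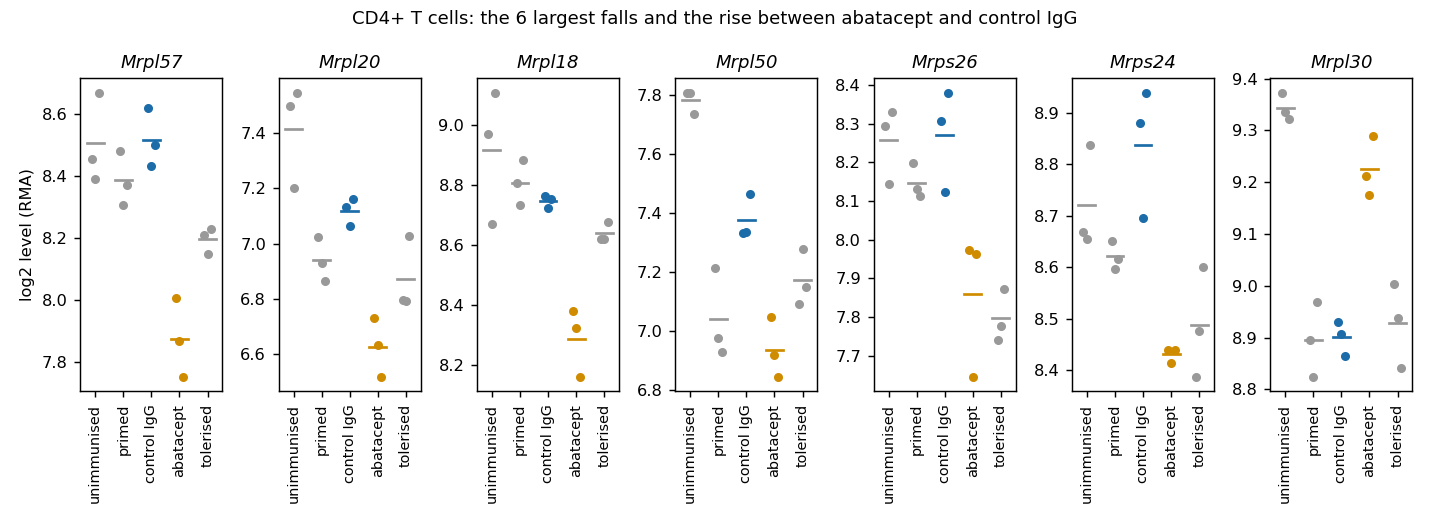
Log2 level of the 6 members with the largest falls and of the 1 riser between control IgG (blue) and abatacept (orange) in CD4+ T cells, with the other 3 CD4+ conditions in grey; points are arrays and lines group means of 3. These genes were picked among called members whose blue and orange points do not overlap, and Mrpl57 shows the largest difference, -0.64.

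The count of falls depended on single arrays: it was 6 without control IgG replicate 3, 7 without abatacept replicate 2, 8 without abatacept replicate 3 and 16 without abatacept replicate 1. It was 24 with array weights, and 8 with a further quantile normalization or with only the 2 groups in the fit. Without the 3 unimmunised CD4+ arrays it was again 13. The 29 cell cycle genes moved with this contrast to a far larger extent: 28 fell, with a median of -1.76, Ccna2 from 8.57 to 5.84 and Rrm2 from 8.63 to 5.90. Of 13 T cell activation genes 5 fell and 4 rose. Of the markers of other cells, none of the 6 erythroid, 9 neutrophil, 5 dendritic cell and 4 mast cell and basophil genes passed, whereas 2 of 5 natural killer cell genes rose, 1 of 10 monocyte and macrophage genes fell, and of 3 B cell genes 1 rose and 1 fell. The summed linear level of the natural killer cell genes was 439 to 474 under control IgG and 771 to 798 under abatacept. That of the monocyte and macrophage genes was 297 to 331 and 190 to 269, and that of the B cell genes 154 to 198 and 87.9 to 101. Such sums follow the genes with the highest levels and do not count cells. Gzma averaged 7.23 under control IgG and 8.76 under abatacept, against 4.26 and 4.70 for Ncr1. Ccr2 averaged 6.78 and 4.87, against 4.23 and 4.29 for Csf1r. Cd22 averaged 6.78 and 4.37, against 4.65 and 4.92 for Cd79a. The summed linear level of the neutrophil genes was 129 to 165 under control IgG and 146 to 188 under abatacept. The part of these lists in the fall of the mitochondrial ribosomal protein genes was not tested. Other genes of mitochondrial translation and import were taken from lists chosen by function. Of 21 protein import genes 7 fell, among them the outer membrane receptors Tomm20 (9.40 to 8.96) and Tomm22 (8.00 to 7.64); of 19 ribosome assembly genes 3 fell and 1 rose, with the assembly GTPase Noa1 falling from 8.01 to 7.64 and Mtg2 rising from 5.97 to 6.38. Of 8 translation factors 1 fell (Guf1), of 17 mitochondrial aminoacyl-tRNA synthetases and related enzymes 1 fell (Iars2), and of 4 mitoribosomal proteins with other symbols 1 rose (Ptcd3). None of 11 genes for mitochondrial DNA replication and transcription and none of 8 biogenesis regulators passed.

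Promoters are shown for the 6 members with the largest falls under abatacept in CD4+ cells, by the brightest probe set. Each line gives the 120 bases before the RefSeq start site (GRCm38.p6), 5′ to 3′ along the gene, with motif matches in capitals.
Mrpl57, chr14:57826119-57826238, plus strand: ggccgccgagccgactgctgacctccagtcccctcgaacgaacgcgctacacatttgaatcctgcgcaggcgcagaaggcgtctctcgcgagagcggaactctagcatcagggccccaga
Mrpl20, chr4:155802758-155802877, plus strand: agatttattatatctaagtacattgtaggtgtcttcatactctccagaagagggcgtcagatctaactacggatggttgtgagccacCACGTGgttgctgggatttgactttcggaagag
Mrpl18, chr17:12916092-12916211, minus strand: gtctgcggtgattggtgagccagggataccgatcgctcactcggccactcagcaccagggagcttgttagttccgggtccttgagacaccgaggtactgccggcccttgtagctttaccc
Mrpl50, chr4:49521084-49521203, minus strand: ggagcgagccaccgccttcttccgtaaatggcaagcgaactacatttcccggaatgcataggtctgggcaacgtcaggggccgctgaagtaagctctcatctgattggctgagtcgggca
Mrps26, chr2:130563637-130563756, plus strand: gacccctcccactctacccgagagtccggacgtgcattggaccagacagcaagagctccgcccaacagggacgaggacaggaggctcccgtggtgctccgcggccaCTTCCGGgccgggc
Mrps24, chr11:5707702-5707821, minus strand: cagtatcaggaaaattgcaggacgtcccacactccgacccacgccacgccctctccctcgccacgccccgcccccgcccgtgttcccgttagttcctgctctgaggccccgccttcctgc
The motifs searched on both strands were an NRF1 core (GCATGCGC), an ETS motif (CCGGAAG), a YY1 core (AAGATGGC) and the E-box CACGTG, which do not overlap one another in these windows. Mrpl20 holds an E-box whose first letter is 33 bases before the start, Mrps26 an ETS match 14 bases before it, and the other 4 windows hold none of these letters. In the full RefSeq windows, from 250 bases before to 50 after the start, the ETS motif was found for 21 of the 65 members with a sequence (32.3%) against 11.9% of 17492 promoters, the YY1 core for 12 (18.5% against 3.21%) and the NRF1 core for 7 (10.8% against 3.61%). The E-box was found for 4 (6.15% against 7.91%). In these longer windows Mrpl57 and Mrpl18 hold an ETS match and Mrps24 a YY1 core, while Mrpl50 holds none of the motifs. A match is a run of letters and not a shown binding site.

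Control IgG and primed mice differed by label in the injected antibody, and Eif2s3y also differed between them (8.62 in primed and 2.51 in control IgG CD4+ cells). In CD4+ cells 0 of 72 members were called in either direction by limma (all genes 0% higher and 0.0872% lower), with a median of 0.01. An unadjusted p under 0.05 was reached by 5 members and by 873 of 10322 genes tested. In CD11c+ cells again 0 members were called (all genes 0% and 0.0196%), with a median of -0.01. There an unadjusted p under 0.05 was reached by 4 members and by 1038 of 10203 genes tested. Every alternative run also gave 0 in both cell types.

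Against unimmunised mice, the median member was lower in CD4+ cells of primed, tolerised and abatacept-treated mice. In primed mice 30 of 72 fell and 2 rose, where 24.2% of all genes fell and 23.3% rose; the member median was -0.22 and that of all genes 0.02. In tolerised mice 47 fell and 1 rose, against 29.3% and 20.3% of all genes, with medians of -0.31 and -0.03. In abatacept-treated mice 48 fell and 2 rose, against 34.5% and 23.4%, with medians of -0.36 and -0.05. These 3 comparisons share the 3 unimmunised arrays. In them 40, 52 and 55 of 72 members had no overlap between arrays, as did 57.9%, 56.1% and 64.2% of all genes. The largest changes described below were picked among called members without overlap. Large subunit genes gave 22 falls of 47 and small subunit genes 7 of 24 in primed mice, and 31 of 47 and 15 of 24 in tolerised mice.

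Mrps25, a mitochondria-only protein of the small subunit, read 7.70, 7.65 and 7.85 in unimmunised CD4+ cells. It read 7.09, 7.11 and 6.99 in primed, 6.66, 7.09 and 6.88 in tolerised and 6.69, 6.79 and 6.72 in abatacept-treated mice, each below every unimmunised array. The differences were -0.67, -0.86 and -1.0 (SE 0.10 each). Its 2 other tested probe sets changed less, between -0.37 and 0.08 in tolerised and between -0.19 and 0.07 in abatacept-treated mice, 1 of them with the opposite sign. Mrpl12, the stalk protein that recruits translation factors, read 6.99, 6.86 and 7.08 in unimmunised cells, against 6.31, 6.49 and 6.27 in primed, 6.20, 6.34 and 6.17 in tolerised and 6.32, 6.02 and 6.04 in abatacept-treated cells. It fell by 0.62, 0.74 and 0.85 (SE 0.10 each) without overlap. Mrps22, a mitochondria-only small subunit protein whose human gene is mutated in mitochondrial disease, read 8.17, 8.26 and 8.35 unimmunised and 7.58, 7.71 and 7.54 primed, and fell by 0.65 in primed and 0.83 in tolerised mice. Mrpl50 fell by 0.74 in primed and 0.84 in abatacept-treated mice, Mrpl35 by 0.67 and 0.75 in primed and tolerised, Mrpl34 by 0.66 and 0.81 in tolerised and abatacept-treated, and Mrpl28 by 0.76 in tolerised mice. Mrps36, the member that is no ribosomal subunit, fell by 0.55 (SE 0.10) in primed mice. In abatacept-treated mice Mrpl20 and Mrps10 each fell by 0.79, the latter only by its brightest probe set (-0.22 with the mean of all its probe sets, not passing).

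Mrps6 and Mrpl58 were the exceptions. Mrps6, a small subunit protein with a bacterial counterpart, read 6.17, 6.16 and 6.08 in unimmunised CD4+ cells, 7.27, 6.64 and 6.87 in primed, 7.58, 6.91 and 7.14 in abatacept-treated and 7.81, 7.92 and 7.72 in tolerised cells. Every treated array lay above every unimmunised one, and the rises were 0.79, 1.07 and 1.68 (SE 0.16 each), the last a 3.21-fold rise and the largest of any member. Its gene overlaps Slc5a3, a myo-inositol transporter, and other probe sets on the array name both genes and were not used; Slc5a3 by its own probe set averaged 4.33 in unimmunised, 4.93 in primed, 5.27 in abatacept-treated and 5.98 in tolerised CD4+ cells, in the same order, and signal from the 2 genes was not separated here. Mrpl58, a peptidyl-tRNA hydrolase of the large subunit that frees stalled ribosomes, rose by 0.34 (SE 0.08) in primed and 0.32 (SE 0.08) in abatacept-treated mice, from 7.91, 7.70 and 7.83 to 8.24, 8.11 and 8.12 in the former.

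The unimmunised CD4+ arrays also held high levels of genes from other cells. In primed against unimmunised mice all 6 erythroid genes, all 9 neutrophil genes and all 10 monocyte and macrophage genes were lower, with medians of -5.52, -7.23 and -3.82, as were all 5 dendritic cell genes and 4 of 5 natural killer cell genes, and 9 of 10 T cell genes were higher. The summed linear level of the neutrophil genes ran from 16412.5 to 18464.5 on the unimmunised arrays and from 99.2 to 151 on the primed ones, and that of the erythroid genes from 7244 to 9575 and from 114 to 230. The 18 of 29 cell cycle genes that passed were lower as well, with a list median of -0.46. In tolerised and abatacept-treated mice all 9 neutrophil genes (medians -6.07 and -6.43), all 6 erythroid genes, and 29 and 28 of the 29 cell cycle genes fell as well, and Eif2s3y was higher in primed and tolerised than in unimmunised cells. The part of these in the members' falls was not tested, and in such bulk samples fewer cells of a type and less RNA per cell cannot be told apart. Among the pathway lists in primed mice, 10 of 21 import genes fell and 1 rose, including the matrix chaperones Hspe1 (10.62 to 9.97) and Hspa9 (10.15 to 9.60), and 4 of 19 assembly genes fell and 1 rose, including Tfb1m, which methylates the small subunit RNA (6.32 to 5.52). Biogenesis regulators were split: Pprc1, a PGC-1-related coactivator, fell from 8.54 to 7.76 and Myc from 9.05 to 8.39, whereas Gabpb1 rose from 7.63 to 7.96. Of 11 genes for mitochondrial DNA 4 rose and 2 fell, the polymerase subunits Polg2 (6.73 to 7.20) and Polg (8.08 to 8.39) among the risers and the RNA-binding protein Lrpprc (8.36 to 7.81) among those lower.

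**Figure D4:**
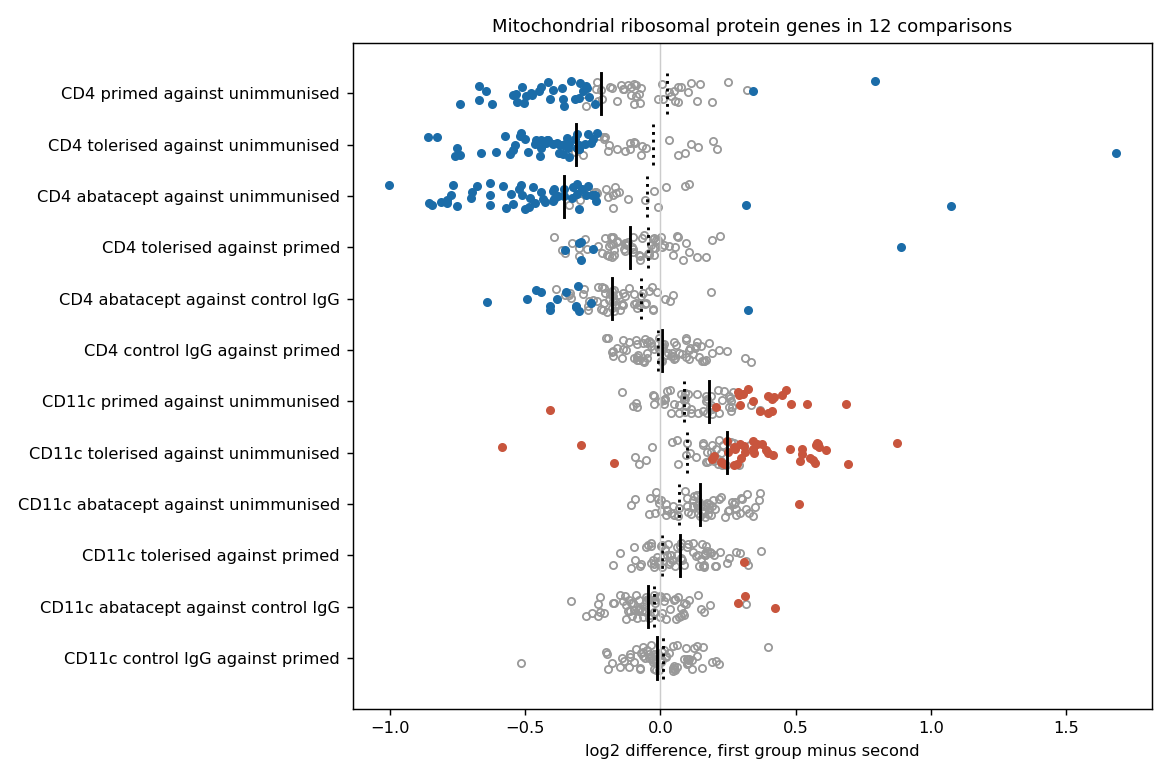
Log2 difference of each tested member in the 12 comparisons within a cell type, first group minus second; filled points passed the test (adjusted p under 0.05) and open points did not. The solid tick is the median of the members and the dotted tick the median of all genes tested. The solid tick lies left of the dotted one in the 3 CD4+ comparisons with unimmunised mice (medians -0.22, -0.31 and -0.36) and right of it in CD11c+ cells of tolerised mice (0.25), and Mrps6 is the point far to the right at 1.68.

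Tolerised and primed mice, the contrast of tolerance with immunity, differed for few members in CD4+ cells: 5 of 72 (6.94%) were lower and 1 (1.39%) higher in tolerised mice, where 8.43% of all genes were lower and 6.24% higher. Arrays did not overlap for 25 of 72 members and for 30.5% of all genes tested. Mrps6 rose by 0.89 (SE 0.16, adjusted p = 0.00282), and its tolerised arrays (7.81, 7.92 and 7.72) all lay above the primed ones (7.27, 6.64 and 6.87). The falls were Mrps26 (-0.35), Mrps21 (-0.30), Mrps12, a protein of the decoding centre (-0.29), Mrpl39 (-0.29) and Mrps14 (-0.25), 4 of them of the small subunit. Their adjusted p lay between 0.0258 and 0.0476, and 0 to 3 falls were left when any 1 of the 6 arrays was dropped; with control IgG in place of primed mice 9 members fell. In the same contrast 21 of 29 cell cycle genes fell and all 4 mast cell and basophil genes rose (median 2.97), as did 3 of 5 natural killer cell, 3 of 9 neutrophil, 2 of 5 dendritic cell and 3 of 10 monocyte and macrophage genes, 1 of the last list falling. Their part was not tested.

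In CD11c+ cells, the antigen-presenting side, the median member lay above unimmunised mice in primed and tolerised mice. In primed mice 18 of 72 rose and 1 fell, where 25.5% of all genes rose and 13.2% fell, so that the share of risers, 25%, was close to the background; the medians were 0.18 for members and 0.09 for all genes. In tolerised mice 36 rose and 3 fell, against 31.9% and 16.7% of all genes, with medians of 0.25 and 0.10, and 25 of 47 large subunit and 10 of 24 small subunit genes were among the risers. The 2 comparisons share the unimmunised arrays. In them 33 and 38 of 72 members had no overlap between arrays, as did 51.2% and 52% of all genes. The largest changes described below were picked among called members without overlap. Counts fell without single arrays: to 9 in primed mice without unimmunised replicate 2 and to 22 in tolerised mice without tolerised replicate 3. Without the 5 arrays with Amy1 above 7, which include unimmunised replicate 2 and tolerised replicate 3, they were 5 and 13, with fewer arrays to test on.

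Mrpl43, a mitochondria-only large subunit protein, had the largest rises. It read 6.35, 6.51 and 6.51 in unimmunised CD11c+ cells, 7.09, 7.05 and 7.29 in primed and 7.33, 7.25 and 7.41 in tolerised mice, so that no array overlapped. The differences were 0.69 (SE 0.10, adjusted p = 0.000197) and 0.87 (SE 0.10), and they passed under each alternative run. Mrpl18 read 8.01, 7.84 and 8.03 in unimmunised and 8.73, 8.46 and 8.77 in tolerised mice, a rise of 0.69 (SE 0.09). Mrpl19 rose by 0.45 and 0.61 in primed and tolerised mice, Mrpl40 by 0.46 and 0.58 and Mrpl15 by 0.41 and 0.58; Mrpl27 (0.54) and Mrps25 (0.48) were named in primed and Mrpl13 (0.59) in tolerised mice. Mrps25 lost its call without unimmunised replicates 1 or 2 or primed replicates 2 or 3, Mrpl27 without unimmunised replicate 2, and with the mean of all probe sets the primed differences of Mrpl15 (0.05) and Mrpl19 (0.10) did not pass.

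Mrpl35, a large subunit protein with a bacterial counterpart, went the other way in these cells. It read 6.67, 6.75 and 6.98 in unimmunised, 6.43, 6.46 and 6.27 in primed and 6.20, 6.09 and 6.35 in tolerised mice, lower on every array of the latter 2. The differences were -0.41 in primed (SE 0.12, not passing without unimmunised replicate 3 or primed replicate 3) and -0.59 in tolerised mice (SE 0.12). Mrps2 (-0.29) and Mrpl50 (-0.17) were the other falls in tolerised mice; Mrpl50 did not pass without unimmunised replicates 2 or 3 or tolerised replicates 2 or 3. Under abatacept Mrpl35 read 7.17, 6.90 and 6.98.

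Genes of other cells and of the cell cycle moved with these contrasts in CD11c+ cells too. In tolerised mice 27 of 29 cell cycle genes rose (median 1.17), all 8 neutrophil genes rose (median 3.18), 7 of 8 T cell genes rose and 8 of 10 monocyte and macrophage genes fell while 2 rose. The summed linear level of the neutrophil genes was 2021 to 4685 on unimmunised and 12543 to 22775 on tolerised arrays, and that of the T cell genes 856 to 1295 and 1550 to 2101. The dendritic cell genes rose in 5 of 6 cases, and their summed level was 4917 to 5424 on unimmunised and 6652 to 7277 on tolerised arrays. In primed mice 21 of 29 cell cycle, all 8 neutrophil, all 6 dendritic cell, 5 of 8 T cell and 3 of 5 natural killer cell genes rose, while 8 of 10 monocyte and macrophage genes fell and 2 rose. Eif2s3y was also higher in primed than in unimmunised CD11c+ cells. The part of these genes was not tested. Of the pathway lists in tolerised mice, 9 of 21 import genes rose and none fell, among them Hspe1 (9.43 to 10.09) and Timm23, the channel of the inner membrane (9.64 to 9.93), while 2 of 19 assembly genes rose and 3 fell. Of 8 biogenesis regulators 3 rose: Gabpb1 (6.73 to 7.50), Nrf1 (7.73 to 8.25) and Yy1 (8.84 to 9.06). Tfam, which packages mitochondrial DNA, rose from 7.45 to 7.97 and was the only 1 of 11 genes of that list to pass.

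Few members were called in the other contrasts in CD11c+ cells. In abatacept-treated against unimmunised mice 1 rose and 0 fell by limma, against 2.1% and 0.245% of all genes. Of 72 members 64 lay above 0, with a median of 0.15 against 0.07 for all genes. An unadjusted p under 0.05 was reached by 20 members and by 1852 of 10203 genes tested. The riser was Mrpl43, at 6.99, 7.03 and 6.90, by 0.51. That call was lost without any of abatacept replicates 1 to 3 or unimmunised replicates 1 or 2. In tolerised against primed mice 1 rose and 0 fell by limma, against 1.39% and 1.45% of all genes. Of 72 members 53 lay above 0, with a median of 0.07 against 0.01 for all genes. An unadjusted p under 0.05 was reached by 9 members and by 1825 of 10203 genes. The riser was Mrpl52, a mitochondria-only large subunit protein, from 9.80, 9.67 and 9.76 to 10.05, 9.99 and 10.12, by 0.31. It did not pass without any of primed replicates 1 to 3 or tolerised replicates 1 or 3. Eif2s3y was high in primed and low in tolerised CD11c+ cells, and its part was not tested. In abatacept against control IgG 46 of 72 members lay below 0, with a median of -0.04 against -0.02 for all genes. An unadjusted p under 0.05 by limma was reached by 8 members and by 2927 of 10203 genes. After adjustment 3 members rose and 0 fell, against 6.43% and 8.86% of all genes. They were Mrpl35 by 0.42, Mrpl1 by 0.31 and Mrpl3 by 0.29. Mrpl1 read 6.33, 6.31 and 6.37 under control IgG and 6.62, 6.62 and 6.71 under abatacept. Each had an adjusted p between 0.0346 and 0.0404, and 0 to 2 members were higher when any 1 array was dropped. Without the 5 arrays with Amy1 above 7, abatacept-treated against unimmunised and tolerised against primed mice had no member higher, with fewer arrays to test on. Control IgG was left with replicate 1 alone, so no count is given for it. In abatacept against control IgG 5 of 6 dendritic cell genes were lower, 6 of 10 monocyte and macrophage genes were higher and 2 lower, and Eif2s3y averaged 2.53 and 7.63; their part was not tested.

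The difference between the cell types was tested as an interaction. In comparisons with unimmunised or tolerised mice the organ also differed between the groups for CD4+ cells but not for CD11c+ cells. Under abatacept and control IgG, CD4+ cells came from axillary nodes and CD11c+ cells from pooled spleen and nodes. Organ and cell type therefore cannot be told apart in any of these interactions. An interaction below 0 means a lower change, not a lower level, in CD4+ than in CD11c+ cells. For primed against unimmunised mice the interaction passed below 0 for 40 of 73 members. It passed above 0 for 0 members (limma), where 27.3% of all genes passed below 0 and 14.6% above. The median was -0.40 for members and -0.05 for all genes. An unadjusted p under 0.05 was reached by 43 members and by 5374 of 10838 genes tested. Mrps25 changed by -0.67 in CD4+ and 0.48 in CD11c+ cells, Mrpl12 by -0.62 and 0.24, Mrpl30 by -0.45 and 0.34, Mrpl15 by -0.36 and 0.41, Mrpl20 by -0.48 and 0.27, and Mrps22 by -0.65 and 0.09. All 29 cell cycle genes and all 9 neutrophil genes showed the same interaction, with medians of -1.42 and -10.34, as did all 10 monocyte and macrophage, all 6 dendritic cell and 5 of 6 erythroid genes. Their part was not tested.

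**Figure D5:**
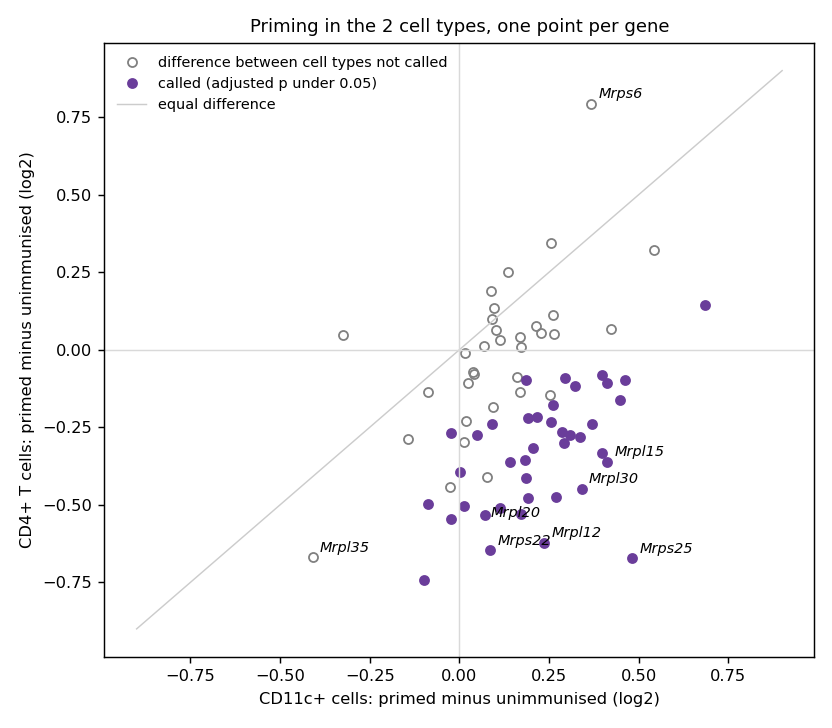
Difference between primed and unimmunised mice for each of the 73 members in CD11c+ cells (horizontal) and CD4+ T cells (vertical), log2 scale; filled points passed the test of the difference between cell types and the grey diagonal marks equal differences. All 40 filled points lie below the diagonal, with Mrps25 (0.48 and -0.67) among the farthest, while Mrps6 (0.37 and 0.79) lies above 0 and Mrpl35 (-0.41 and -0.67) below 0 on both axes.

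For tolerised against primed mice the interaction passed for 3 members below 0 and 1 above (all genes 6.27% and 4.94%). Mrpl58 changed by -0.23 in CD4+ and 0.32 in CD11c+ cells, Mrps26 by -0.35 and 0.18, Mrpl18 by -0.17 and 0.28, and Mrps6 by 0.89 and -0.04. Eif2s3y was high in both CD4+ groups and in primed CD11c+ cells but low in tolerised CD11c+ cells, and its part was not tested. For abatacept against control IgG it passed for 7 below 0 and 1 above (all genes 9.29% and 4.97%). Mrpl57 changed by -0.64 in CD4+ and 0.01 in CD11c+ cells, Mrpl50 by -0.44 and 0.14, Mrpl35 by -0.14 and 0.42, and Mrpl30 by 0.32 and -0.18. Here Eif2s3y was low in both CD4+ groups, and in CD11c+ cells low under abatacept but high under control IgG. Its part was not tested. For tolerised mice the count below 0 was 1 without CD11c+ primed replicate 1 or tolerised replicate 3 and 5 without CD11c+ tolerised replicate 2. For abatacept it was 3 without CD11c+ control IgG replicates 1 or 3, CD11c+ abatacept replicate 1 or CD4+ abatacept replicate 2, and 4 without CD11c+ abatacept replicate 2. With the mean of all probe sets the Mrpl57 interaction came to -0.27 and did not pass.

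Between the cell types over the 5 conditions, 37 of 73 members were higher in CD4+ cells and 11 higher in CD11c+ cells, where 45.9% and 37.1% of all genes were. The medians were 0.12 for members and 0.07 for all genes. The organ differed between the cell types in every condition but the unimmunised one, so organ and cell type cannot be told apart. Mrps5, a small subunit protein with a bacterial counterpart, averaged 7.45 in CD4+ and 6.35 in CD11c+ cells, a difference of 1.10 (SE 0.09), and its 15 CD4+ values, 7.18 to 7.79, all lay above its 15 CD11c+ values, 5.72 to 6.93. Mrps6 differed by 0.84, Mrpl58 by 0.77, and Mrps26 and Mrps35 by 0.58 each, all higher in CD4+ cells in 5 of 5 conditions. On the other side Mrpl35 averaged 6.13 in CD4+ and 6.60 in CD11c+ cells (-0.47, SE 0.05), higher in CD11c+ cells in all 5 conditions, followed by Mrps27 (-0.38) and Mrpl42 (-0.29). Of 8 biogenesis regulators 6 were higher in CD4+ cells and 1 lower, and of 11 genes for mitochondrial DNA 9 and 1, with Nrf1 higher by 0.81, Tfam by 0.76 and Polg by 0.99.

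Different probe sets of a gene did not always agree. Of the members, 38 had several probe sets, and 93 called differences had a further probe set tested; a further one was called in the same direction for 47, had the opposite sign for 26 and was called in the opposite direction for 7. The 7 were Mrpl38 and Mrps15 in CD4+ cells of tolerised mice, Mrpl21, Mrps11 and Mrps15 in CD4+ cells of abatacept-treated mice, and in CD11c+ cells Mrpl19 in primed and Mrps14 in tolerised mice, all against unimmunised mice. Mrps11, for example, differed by -0.48 by its brightest probe set and by 0.59 by its other one. Members with an opposite sign and no opposite call were, in at least 1 comparison, Mrpl1, Mrpl11, Mrpl15, Mrpl19, Mrpl21, Mrpl50, Mrpl52, Mrpl58, Mrps11 and Mrps25.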

How the data were processed

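Total RNA of MACS-sorted CD4+ and CD11c+ cells was amplified, biotin-labelled and hybridised to 30 mouse arrays of 45118 probe sets. The deposited values are log2 expression after RMA, per the submitters' processing notes; no further background correction or normalization was applied, and the number of arrays (3 per group) limits the precision. Of the probe sets, 28898 named 1 gene, 551 several and 15669 none; each gene was read by its brightest probe set. A gene was tested if 3 or more of a cell type's 15 arrays held it above their median (10322 in CD4+, 10203 in CD11c+, 10838 in fits on all 30). limma 3.58.1 in R 4.3.3 was fitted per cell type (lmFit, eBayes, 10 residual degrees of freedom), two-sided, with Benjamini-Hochberg adjustment over all genes tested at 0.05, and checked on simulated data. Named in each comparison were the 6 largest rises and falls among members called with no overlap between groups, the 5 most and 5 least variable members, all members called where 5 or fewer were, and those whose probe sets disagreed; of each other list, at most 4 genes. The members and the 17 other lists were chosen with earlier results of these data known. Promoter sequences are RefSeq's. Alternatives included array weights, renormalization, no filter and leaving out each array. Figures were drawn with matplotlib 3.10.9.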

Additional observations from a re-analysis of the deposited data

Results flagged for a closer look

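The results below stood out because the same contrast of conditions gave different effects in CD4+ and CD11c+ cells by limma's test of the difference itself. Each value is the CD4+ difference minus the CD11c+ difference on the log2 scale. With unimmunised or tolerised mice the organ also differed between the groups for CD4+ cells, whereas CD11c+ cells came from pooled spleen and nodes. Under abatacept and control IgG, CD4+ cells came from axillary nodes. Organ and cell type cannot be told apart in any of these contrasts. Between tolerised and primed mice, and between abatacept and control IgG, Eif2s3y differed far more in CD11c+ than in CD4+ cells, and its part was not tested. For primed against unimmunised mice 40 of 73 members passed below 0, as did 27.3% of all genes, while 66 had a value below 0. Mrps25 (-1.15), Mrpl12 (-0.86), Mrpl30 (-0.79), Mrpl15 (-0.77), Mrpl20 (-0.74) and Mrps22 (-0.73) were the farthest. The others kept their call under each alternative run; Mrpl15 came to -0.11 with the mean of all its probe sets and did not pass.

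For tolerised against primed mice 3 of 73 members passed below 0 and 1 above, against 6.27% and 4.94% of all genes. Mrpl58 differed by -0.55, Mrps26 by -0.53 and Mrpl18 by -0.45, and Mrps6 by 0.93. Mrps6 passed under each alternative run, whereas Mrpl58 failed in 1 (the mean of all probe sets), Mrps26 in 3 and Mrpl18 in 9 of 18.

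For abatacept against control IgG 7 of 73 members passed below 0 and 1 above, against 9.29% and 4.97% of all genes. Mrpl57 differed by -0.65, Mrpl50 by -0.58, Mrpl35 by -0.56, Mrpl3 by -0.46, Mrps2 by -0.38 and Mrps24 by -0.36, and Mrpl30 by 0.50. Over the 18 alternatives of each result, Mrpl50, Mrpl3 and Mrpl30 passed in all, Mrpl57 failed in 1 (the mean of all probe sets), Mrpl35 in 5, Mrps2 in 9 and Mrps24 in 10.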

How the results depend on the processing

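The sign of the median over members was kept under every alternative run, except between control IgG and primed mice, where it lay near 0 in both cell types, and no named member reversed. Of 86 results for named members, 55 kept their call throughout. Counts of members called moved as follows, and the cause was not tested. With only the 2 groups compared in the fit, which leaves fewer arrays, CD4+ cells gave 1 lower in tolerised against primed mice and 8 lower in abatacept against control IgG; CD11c+ cells gave 21 higher and 1 lower in tolerised, 0 higher in abatacept-treated against unimmunised mice, 0 higher in tolerised against primed mice and 1 higher in abatacept against control IgG; the interactions gave 1 lower (tolerised) and 4 lower (abatacept). Without the filter, CD4+ tolerised against unimmunised gave 2 higher, CD4+ tolerised against primed 2 lower, and CD11c+ tolerised against primed and abatacept against control IgG 0 higher each. After a further quantile normalization, CD4+ cells gave 4 higher in primed and 2 higher in tolerised against unimmunised mice, 1 lower in tolerised against primed and 8 lower in abatacept against control IgG; CD11c+ cells gave 11 higher and 3 lower in primed and 23 higher in tolerised against unimmunised mice, and 2 higher in tolerised against primed. With array weights, abatacept against control IgG gave 24 lower in CD4+ and 3 lower in CD11c+ cells, CD11c+ tolerised against primed 2 higher, and the interactions 6 lower (tolerised) and 14 lower (abatacept). With the mean of all probe sets, CD4+ primed against unimmunised gave 4 higher, CD4+ abatacept against control IgG 0 higher, CD11c+ primed against unimmunised 2 lower and CD11c+ tolerised against primed 0 higher.

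Among alternatives chosen after seeing the data, control IgG in place of primed arrays gave 9 lower in CD4+ tolerised against primed, 0 lower in CD11c+ primed against unimmunised, and 2 higher and 1 lower in CD11c+ tolerised against primed. Without the 5 CD11c+ arrays with Amy1 above 7, 5 were higher in primed and 13 in tolerised against unimmunised mice. There were 0 higher in abatacept-treated against unimmunised and in tolerised against primed mice. These fits had fewer arrays, and control IgG was left with replicate 1 alone. Correlations between the deviations of arrays with the same replicate number ran from -0.23 to 0.28. In 0 of 17 comparisons were all 3 over 0.1. Samples were therefore treated as unpaired, though so few arrays cannot exclude pairing. The replicate block changed 1 count by over 1.5 times, CD11c+ tolerised against primed, to 0 higher.

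Leaving out 1 array at a time, counts ran from 1 to 2 (CD4+ tolerised against unimmunised, higher), 0 to 3 (CD4+ tolerised against primed, lower), 6 to 16 (CD4+ abatacept against control IgG, lower), 9 to 25 higher and 0 to 1 lower (CD11c+ primed against unimmunised), 22 to 39 (CD11c+ tolerised against unimmunised, higher), 0 to 2 (CD11c+ abatacept against unimmunised, higher), 0 to 2 (CD11c+ tolerised against primed, higher), 0 to 2 higher and 0 to 1 lower (CD11c+ abatacept against control IgG), 1 to 2 higher and 1 to 5 lower (interaction, tolerised) and 3 to 9 lower (interaction, abatacept). Signals near the array median, such as Mrpl47 and Mrpl14, limit what low genes can show.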
